A study of Homo sapiens with 6 samples.

Results

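PBX, MEIS and PKNOX proteins are homeodomain transcription factors of the TALE class, whose homeodomain carries a short extra loop. They were examined here together with TGIF1 and TGIF2 of the same class. The genes were taken by symbol, and PBX2, PBX3, PBX4, MEIS1, MEIS2, MEIS3, PKNOX1, TGIF1 and TGIF2 each had 1 row, 9 of the 56832 rows in each count table. All 9 passed the filter on low counts and were among the 17415 genes tested. Poly(A) RNA had been sequenced from HEK293T cells, a transformed human embryonic kidney line, in which GLO1 was knocked out in every library. GLO1 encodes the glyoxalase that begins the removal of methylglyoxal (MGO), a reactive by-product of sugar breakdown. The comparison set 3 libraries of GLO1 KO cells kept in 0.2 mM MGO overnight (numbered 1, 3 and 4) against 3 libraries of untreated GLO1 KO cells (numbered 1, 2 and 4). Whether the knockout line was a single clone is not given in the labels, and no wild-type library was analysed here.

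PBX proteins bind DNA side by side with HOX proteins, the factors that give cells their position along the body axis, and so sharpen which sites a HOX protein can hold. MEIS and PKNOX proteins attach to a separate surface of PBX, help to keep it in the nucleus and can join PBX and HOX on DNA. TGIF1 and TGIF2 recognise a related short sequence but act mostly as repressors, among others as partners of the SMAD proteins that carry TGF-beta signals.

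Library totals were 19195920 to 21544749 counts with MGO and 41002134 to 45910040 counts without it, so depth and treatment cannot be told apart by design. With untreated libraries thinned to the mean MGO total, 7 members were still called lower and 2 higher. The share of counts from mitochondrial genes ran from 5.34% to 8.17% with MGO and from 4.2% to 5.42% without, and was highest in the library numbered 1 of each group. GLO1 itself averaged 140.4 ± 5.30 CPM with MGO and 48.1 ± 2.57 CPM in untreated cells (SD, n = 3 each). With no wild-type library these values do not check the knockout. Of the markers of the line, KRT8, KRT18, VIM and LIN28B were detected at 93.8 CPM or more in every library and NEFM at no more than 1.64 CPM. The summed level of these 5 was 1547 to 1572 CPM with MGO and 1105 to 1142 CPM without. KRT8 was the largest part in both groups (means of 824 and 525 CPM). The markers did not move together. KRT8, KRT18 and VIM were higher with MGO (log2 fold changes 0.65, 0.67 and 0.37), and LIN28B and NEFM lower (-0.42 and -1.80). Markers of blood, liver, endothelial and heart muscle cells (PTPRC, CD3E, ALB, APOA1, CDH5, PECAM1 and MYH6) had at most 8 counts in any library, and their summed level was 0.43 to 0.83 CPM with MGO and 0.19 to 0.27 CPM without. CPM are read counts brought to a common library total, here after TMM scaling, so a change is one of share among a library's transcripts. In bulk RNA, fewer cells of a type and less RNA per cell cannot be told apart. Separate cultures are not named in the labels, and p-values therefore weigh a change against library-to-library spread alone, perhaps a purely technical one.

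The cofactors moved in both directions, with MEIS2 and MEIS1 lowest relative to untreated cells and PBX4 highest. With MGO 7 members fell and 2 rose (edgeR quasi-likelihood test, adjusted p under 0.05). Against a fold of 1.5 in place of 1, PBX3, MEIS3, TGIF1 and TGIF2 did not pass, and 4 members were called lower and 1 higher. In the same test 83.1% of all tested genes were called, 41.2% lower and 41.8% higher, so a call alone sets no member apart. Libraries of the groups did not overlap for any of the 9 members, which was also true of 83.5% of tested genes (41.7% with MGO below and 41.8% with MGO above). The median log2 fold change over the members was -0.49, against 0.0053 over all tested genes, and the median size of the change was 0.71 in both. At least 2-fold falls were seen for 2 members, against 16.7% of tested genes, and an at least 2-fold rise for 1 member, against 19.8%.

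**Figure D1:**
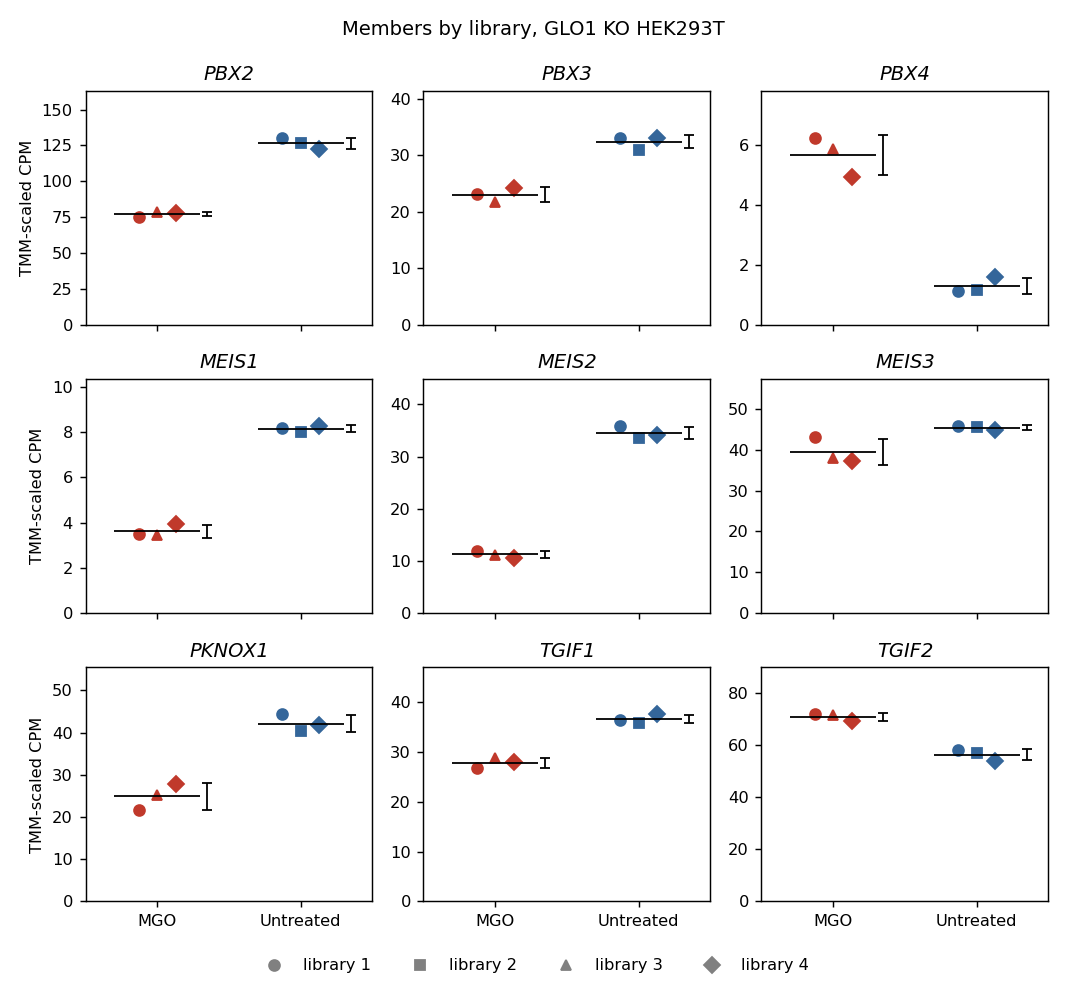
TMM-scaled CPM of the 9 members in each library (points, shape gives the library number), with MGO left and untreated right in each panel; lines are group means and bars beside them 1 SD (n = 3). MGO libraries lie below all untreated libraries for 7 members and above them for PBX4 and TGIF2.

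The start regions of the members that rose and of the member that fell furthest are printed here, because these genes stand at the ends of the members' range of change or moved against their relatives. RefSeq start sites on GRCh38.p14 gave 18 start regions for the 9 members, 7 of them for TGIF1. Each was read from 250 bases before the start to the first 20 bases after it, 5′ to 3′ on the gene's strand. Capitals mark every match, on either strand, to any of 7 motifs. PBX4 is on the minus strand at chr19:19618668-19618937, the TGIF2 starts on the plus strand at chr20:36573214-36573483 and chr20:36573347-36573616, which overlap, and the MEIS2 starts on the minus strand at chr15:37099087-37099356 and chr15:37098677-37098946.
PBX4: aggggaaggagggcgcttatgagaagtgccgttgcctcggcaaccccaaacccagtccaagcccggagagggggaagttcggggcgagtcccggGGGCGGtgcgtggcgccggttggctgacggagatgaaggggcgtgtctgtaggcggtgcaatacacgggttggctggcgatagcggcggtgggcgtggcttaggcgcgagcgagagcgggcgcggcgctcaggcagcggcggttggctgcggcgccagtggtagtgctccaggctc
TGIF2, first start: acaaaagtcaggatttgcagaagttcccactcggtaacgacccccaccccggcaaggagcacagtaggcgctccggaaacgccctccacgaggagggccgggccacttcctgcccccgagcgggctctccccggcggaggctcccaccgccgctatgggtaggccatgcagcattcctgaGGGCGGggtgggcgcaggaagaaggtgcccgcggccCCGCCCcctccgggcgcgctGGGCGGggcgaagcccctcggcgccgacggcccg
TGIF2, second start: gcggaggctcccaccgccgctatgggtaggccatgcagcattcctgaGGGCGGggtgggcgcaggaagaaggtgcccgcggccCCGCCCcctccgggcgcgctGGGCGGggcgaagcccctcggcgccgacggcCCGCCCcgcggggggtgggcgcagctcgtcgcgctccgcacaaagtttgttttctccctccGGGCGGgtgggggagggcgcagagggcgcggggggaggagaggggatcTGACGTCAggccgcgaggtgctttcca
MEIS2, first start: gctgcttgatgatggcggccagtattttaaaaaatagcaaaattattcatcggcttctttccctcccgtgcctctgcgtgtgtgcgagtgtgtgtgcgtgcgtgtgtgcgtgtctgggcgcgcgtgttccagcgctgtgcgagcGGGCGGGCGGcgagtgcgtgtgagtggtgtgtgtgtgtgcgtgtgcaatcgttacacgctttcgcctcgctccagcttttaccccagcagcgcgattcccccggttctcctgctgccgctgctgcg
MEIS2, second start: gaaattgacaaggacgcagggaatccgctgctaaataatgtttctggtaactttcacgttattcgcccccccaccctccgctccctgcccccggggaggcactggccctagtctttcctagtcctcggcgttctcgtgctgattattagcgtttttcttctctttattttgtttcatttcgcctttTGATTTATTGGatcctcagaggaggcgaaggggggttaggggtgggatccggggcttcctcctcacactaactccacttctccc

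The motifs searched were TGACAG (core of MEIS and TGIF sites), TGATNNAT (PBX with HOX), TGAT followed directly by TGACAG (PBX with MEIS or PKNOX, which contains the first), TGACGTCA (the cyclic AMP response element), TGATGNAAT (C/EBP with ATF), CCAAT and GGGCGG (the GC box of SP factors). TGIF2 held TGACGTCA from 7 bases before its second start, a match found in 1 of the 18 member regions and in 1.82% of 34943 start regions of the same length. The second MEIS2 start had TGATNNAT from 64 bases before it, and CCAAT on the other strand overlapped that match. CCAAT was common, in 5 of the 18 member regions and in 33.2% of all regions. TGATNNAT occurred in 4 of the 18 member regions, 1 of MEIS2 and 3 of the 7 of TGIF1, and in 6.89% of all regions. The core TGACAG was present in 3 of the 18 member regions, of PBX3 and TGIF1, against 14.3% of all regions, and neither that joint site nor TGATGNAAT was matched for any member (0.146% and 0.944% of all regions). GC boxes were found in 14 of the 18 member regions, some of which overlap, and in 43.6% of all regions, beside a median GC content of 63.9% in the member regions and 58.1% in all. PBX4 showed only a GC box. A match of letters describes the window and says nothing of binding.

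PBX genes split by member. PBX2, the broadly expressed member (chromosome 6, 32184741 to 32190186, minus strand, GENCODE 29 on GRCh38), had 75.3, 78.3 and 78.1 CPM in MGO libraries 1, 3 and 4, against 130.4, 127 and 123 CPM in untreated libraries 1, 2 and 4. All MGO libraries lay below all untreated ones, and the log2 fold change was -0.71 (SE 0.040, edgeR adjusted p = 7.54e-17). PBX3 (chromosome 9, 125747345 to 125967377, plus strand), a member studied in nervous system development and leukaemia, had 23.2, 21.7 and 24.3 CPM with MGO, against 33.1, 31.0 and 33.1 CPM in untreated cells. The groups did not overlap, and it fell by 0.49 on the log2 scale (SE 0.057, adjusted p = 3.75e-09).

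PBX4 (chromosome 19, 19561707 to 19618916, minus strand), known in mouse mainly from the testis, was the exception in its family. Its raw counts were 113, 109 and 104 in MGO libraries 1, 3 and 4, against 53, 55 and 68 in untreated libraries 1, 2 and 4, so it was higher in MGO even before scaling for depth, by 1.85 times. Scaled, it stood at 6.24, 5.85 and 4.94 CPM with MGO and 1.14, 1.15 and 1.60 CPM without. In untreated libraries its counts were the lowest of the 9 members, and untreated library 4 lay above the other two of its group. The log2 fold change was 2.13 (4.38-fold, SE 0.15, adjusted p = 4.54e-14), and 91.2% of tested genes had a lower one.

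All MEIS genes fell, with log2 fold changes from -1.62 to -0.21. MEIS2 (chromosome 15, 36889204 to 37101299, minus strand), needed for heart, palate and limb development, had 11.99, 11.1 and 10.6 CPM with MGO, against 35.9, 33.6 and 34.1 CPM in untreated cells. That is 3.08-fold lower (log2 fold change -1.62, SE 0.065, adjusted p = 1.43e-20), and 6.88% of tested genes had a lower log2 fold change. MEIS1 (chromosome 2, 66433452 to 66573869, plus strand), a partner of HOX proteins in blood stem cells and leukaemia, had 3.48, 3.44 and 3.94 CPM with MGO, against 8.19, 7.98 and 8.27 CPM without. Its fall was 2.24-fold (log2 fold change -1.16, SE 0.11, adjusted p = 1.65e-11) on 63 to 83 counts a library with MGO and 352 to 382 without.

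MEIS3 (chromosome 19, 47403124 to 47419523, minus strand), known from hindbrain patterning in frogs and fish, had 43.2, 37.8 and 37.2 CPM with MGO, against 45.8, 45.5 and 44.7 CPM in untreated cells. MGO library 1, the library with the highest mitochondrial share, lay nearest to the untreated level, and the part of that share in the result was not tested. The log2 fold change was -0.21 (SE 0.051, adjusted p = 0.000563), -0.30 without MGO library 1 and -0.31 with library size as the only scaling. It ran from -0.39 to -0.14 over all alternatives, with adjusted p-values from 9.63e-14 to 0.0321 in every test against a fold of 1. MEIS3P1 and MEIS3P2, processed copies of MEIS3, had 114 to 159 and 50 to 75 counts with MGO, against 503 to 563 and 235 to 264 in untreated libraries, so reads may be divided among the copies and the value of MEIS3 is uncertain. MEIS3P1 had a log2 fold change of -0.71 and MEIS3P2 of -0.75.

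PKNOX1, also called PREP1, binds PBX in place of MEIS and protects it from decay. The gene (chromosome 21, 42974510 to 43033931, plus strand) had 21.6, 25.3 and 27.7 CPM in MGO libraries 1, 3 and 4, against 44.3, 40.3 and 41.8 CPM in untreated libraries 1, 2 and 4. MGO library 1 was the lowest, and the coefficient of variation of 12.5% with MGO was the largest of the 9 members there, against 4.81% in untreated cells. The fall was 1.69-fold (log2 fold change -0.76, SE 0.065, adjusted p = 1.06e-10), and -0.64 on the log2 scale without both libraries numbered 1.

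TGIF1 and TGIF2 went in opposite directions. TGIF1 (chromosome 18, 3411608 to 3459978, plus strand), a SMAD corepressor mutated in some cases of holoprosencephaly, had 26.8, 28.8 and 28.0 CPM with MGO, against 36.4, 35.9 and 37.6 CPM without. All MGO libraries were below the untreated ones, and its log2 fold change was -0.39 (SE 0.052, adjusted p = 4.80e-08). TGIF2 (chromosome 20, 36573488 to 36593950, plus strand), a close relative that also represses TGF-beta responses, had 72.0, 71.7 and 69.4 CPM with MGO, against 58.4, 57.1 and 54.1 CPM in untreated cells. It rose 1.26-fold (log2 fold change 0.33, SE 0.043, adjusted p = 3.22e-08). Its log2 fold change was 0.15 with no filter on low counts (adjusted p = 0.00371, in a range over tests against a fold of 1 of 1.40e-10 to 0.00371).

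Rows that share sequence with the other members held few counts. The readthrough row TGIF2-C20orf24 and the antisense row MEIS1-AS2 were at 0 in all libraries, and MEIS1-AS3 had 0 to 2 counts with MGO and 1 to 7 without. PBX2P1 had 1 to 3 counts with MGO and 6 to 16 without, TGIF1P1 at most 2 and TGIF2P1 at most 5 in any library. In GENCODE 29 the TGIF2 readthrough gene shares 8.14% of the TGIF2 exon bases, and a non-coding RNA with no row of its own in the tables overlaps 15.1% of those of PBX2 on the same strand. An antisense gene, also with no row, overlaps 3.99% of the MEIS2 exon bases on the opposite strand. Reads that fit both genes may have been counted for either or for none, since neither the counting mode nor the strand setting is given.

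Levels can be compared between genes only per length of exon, here CPM per kilobase of the union of GENCODE 29 exons. With MGO the order was TGIF2 (18.8 ± 0.38), PBX2 (17.8 ± 0.38), MEIS3 (7.70 ± 0.64), PBX3 (5.09 ± 0.28), TGIF1 (3.39 ± 0.12), PKNOX1 (3.26 ± 0.41), PBX4 (2.22 ± 0.26), MEIS2 (1.04 ± 0.064) and MEIS1 (0.33 ± 0.026). In untreated cells it was PBX2 (29.1 ± 0.90), TGIF2 (14.9 ± 0.59), MEIS3 (8.86 ± 0.11), PBX3 (7.15 ± 0.26), PKNOX1 (5.53 ± 0.27), TGIF1 (4.45 ± 0.11), MEIS2 (3.20 ± 0.11), MEIS1 (0.75 ± 0.014) and PBX4 (0.51 ± 0.10), each in CPM per kilobase with its SD (n = 3). PBX4 thus stood above MEIS2 and MEIS1 with MGO and last in untreated cells, and TGIF2 stood above PBX2 with MGO and below it in untreated cells. Only TGIF1 and PKNOX1 with MGO were neighbours whose libraries overlapped. The order rests on the annotated exons, and which transcripts these cells use was not measured.

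**Figure D2:**
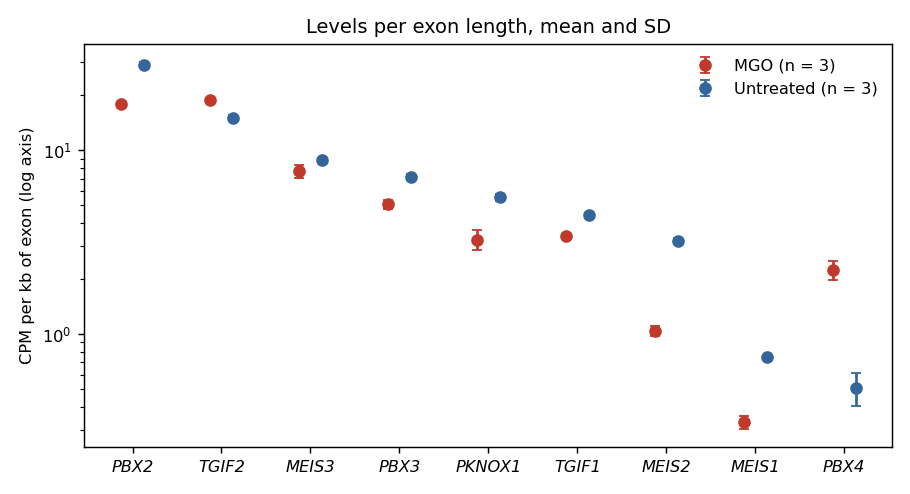
Mean CPM per kilobase of exon with SD (n = 3) on a log axis for each member, MGO left and untreated right, ordered by the untreated level. PBX4 is at 2.22 with MGO, above MEIS2 at 1.04 and MEIS1 at 0.33, and at 0.51 in untreated cells, the lowest of the 9.

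Within a family, the ratio of 2 members in the same library shows unequal change free of length and scaling. The difference of the log2 ratio (MGO minus untreated) was tested for 7 pairs by a two-sided exact permutation test over the 6 libraries, where 0.1 is the smallest p that 3 against 3 allows. Every pair reached that p of 0.1 (0.1 adjusted over the 7 pairs), and the libraries of the groups did not overlap for any pair. The PBX and MEIS pairs reuse the same members, so the 7 results are not independent. Of single tested genes 83.5% did not overlap either, and the share among gene pairs in general was not measured, so separation sets no pair apart. The log2 ratio of PBX2 to PBX4 was 3.76 ± 0.19 with MGO and 6.56 ± 0.30 without, a difference of -2.80, and that of PBX3 to PBX4 differed by -2.58. The difference for PBX2 over PBX3 was -0.22. For MEIS2 over MEIS3 the log2 ratio was -1.80 ± 0.037 with MGO and -0.39 ± 0.043 without, a difference of -1.41. MEIS1 over MEIS3 differed by -0.95, MEIS1 over MEIS2 by 0.46 and TGIF1 over TGIF2 by -0.72.

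**Figure D3:**
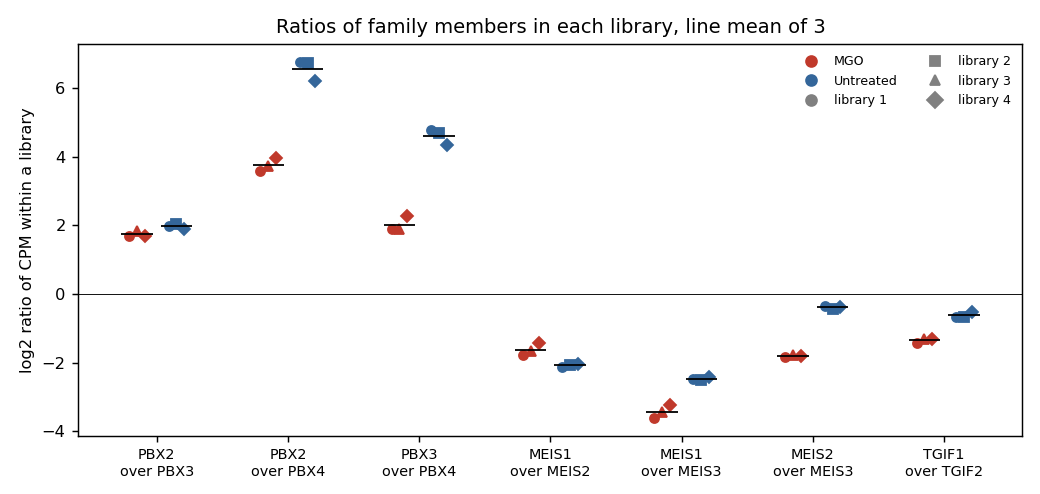
Log2 ratio of the CPM of 2 family members within each library (points, shape gives the library number; line, mean of 3), MGO left and untreated right of each pair. The largest shift is that of PBX2 over PBX4, with means of 3.76 with MGO and 6.56 in untreated cells.

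HOX genes, whose proteins the cofactors bind with, were split by paralog group, since several of groups 9 to 13 can bind MEIS directly. In groups 1 to 8, 17 of 20 tested genes fell, 1 rose and 2 were not called (median log2 fold change -1.03). In groups 9 to 13, 11 of 15 fell, 1 rose and 3 were not called, with a median of -1.02. Both shares of falls stand beside 41.2% of all tested genes. HOXB7 had 11.0 ± 0.60 CPM with MGO and 29.3 ± 1.46 CPM without (SD, n = 3 each). HOXA5 fell 4.68-fold, and among the posterior genes HOXA13 fell 12.8-fold, HOXC13 4.13-fold and HOXA10 2.90-fold. The log2 fold changes of these 5 genes ran from -3.68 for HOXA13 to -1.41 for HOXB7, and the lists were not tested against the members.

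Other TALE genes moved both ways. Of 5 tested Iroquois and Mohawk genes 3 rose and 2 fell (median log2 fold change 0.55), beside 41.8% higher and 41.2% lower of all tested genes. IRX5, an Iroquois factor, had 42.8 ± 1.20 CPM with MGO and 16.8 ± 0.72 CPM without. Its neighbour IRX3 had 14.1 ± 0.72 CPM with MGO and 30.5 ± 0.62 CPM without, and MKX, the tendon factor Mohawk, 2.36 ± 0.46 CPM with MGO and 11.4 ± 0.36 CPM without. IRX5 thus rose while IRX3 and MKX fell.

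Of 9 reported partners of PBX or MEIS proteins 3 rose, 5 fell and 1 was not called (median log2 fold change -0.19), beside 41.8% higher and 41.2% lower of all tested genes. PBXIP1, which binds PBX and blocks its joining with HOX on DNA, fell 3.73-fold to 9.25 ± 0.16 CPM with MGO, against 34.5 ± 1.82 CPM without. The deacetylase HDAC1 fell 1.68-fold and the acetyltransferase EP300 rose 2.47-fold. Of 11 reported partners of TGIF proteins 7 fell, 2 rose and 2 were not called (median -0.75), beside 41.2% lower and 41.8% higher of all tested genes. HDAC1 is counted in both partner lists, and its value is the median of the TGIF list. RXRA, the retinoid X receptor, whose activity TGIF1 represses, had 14.8 ± 0.47 CPM with MGO and 74.4 ± 3.12 CPM without. SMAD3, a carrier of TGF-beta signals, fell 2.71-fold and CTBP2, a corepressor, 1.76-fold.

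Among 6 tested genes reported as targets of MEIS1 with HOX or PBX in blood cells, 5 fell and 1 rose (median log2 fold change -1.05), beside the same 41.2% and 41.8% of all tested genes. TRIB2, a pseudokinase, had 12.3 ± 1.53 CPM with MGO and 92.0 ± 1.63 CPM without, and cyclin D1 (CCND1) had 14.98 ± 1.11 CPM with MGO and 52.7 ± 2.17 CPM without. HIF1A, the oxygen-sensing factor, rose 1.26-fold. Whether these genes answer to MEIS proteins in kidney cells was not tested.

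**Figure D4:**
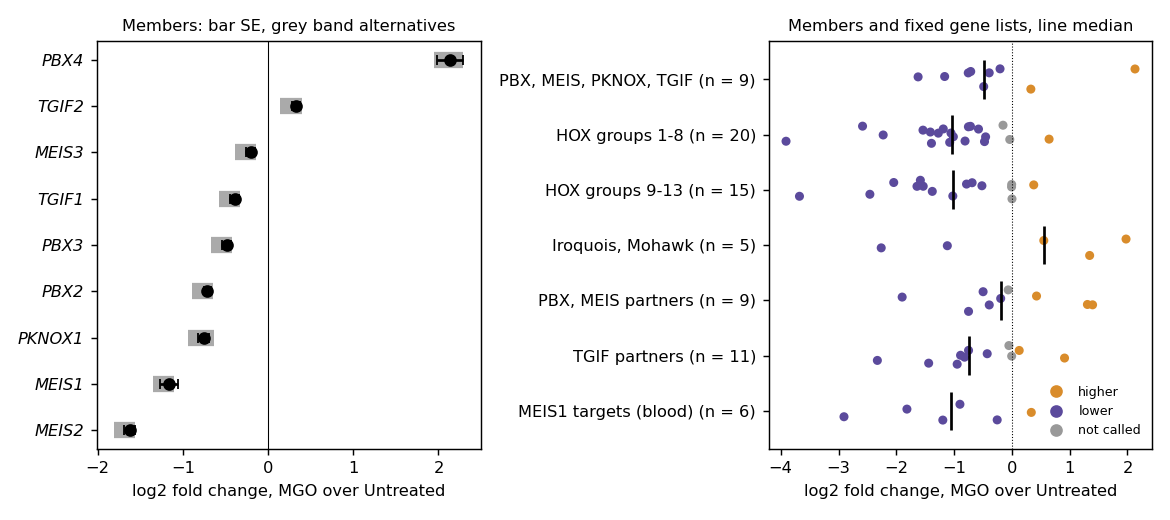
Left, log2 fold change (MGO over untreated) of each member with its SE, over a grey band spanning the values under all alternatives; right, log2 fold changes of the members and of the tested genes of 6 lists, coloured by call, with a line at the median. Members run from -1.62 (MEIS2) to 2.13 (PBX4), no band crosses 0, and both HOX groups have medians near -1.

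Candidates for a like pattern had a gene symbol, not a LOC, clone or date name, and averaged at least 5 CPM, which PBX4 itself did not. Among them, the genes whose pattern over the 6 libraries was most like a member's were sought by Euclidean distance of centred log2 CPM. This distance includes the difference between the groups, so the genes it picks have fold changes like the member's by selection. A shared control was not tested. For MEIS2, among 10875 genes, these were COA5 (distance 0.046), ROBO1 (0.048) and GAREM2 (0.056), with log2 fold changes of -1.62, -1.62 and -1.63. For PBX4, among 10876 genes, they were ZBTB49 (0.31), ARRDC3 (0.33) and DUSP10 (0.34), with log2 fold changes of 1.95, 2.10 and 2.11.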

How the data were processed

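Each library has a table of raw read counts by gene symbol (dates stand in for symbols in 29 rows), left unnormalized by the authors, judging from the deposited whole numbers and unequal totals. Per the submitters' processing notes build hg38 was used, with STAR 2.4, HTSeq 0.9.1, Trim Galore and Picard among the tools. Neither annotation, strand setting nor treatment of reads shared by genes is given there.

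Genes were filtered with filterByExpr and scaled by TMM in edgeR 4.0.16 (R 4.3.3). MGO was compared with untreated by robust glmQLFit and a two-sided glmQLFTest without covariates, with Benjamini-Hochberg adjustment over all 17415 genes tested and a threshold of 0.05. Standard errors were taken as the absolute log2 fold change over the square root of the F statistic. The log2 CPM used a prior count of 2. The test was run on simulated data, where it called 38 of 49 genes changed 1.25-fold and all 51 changed 2-fold. There were 13 false calls among 16159 genes tested. Few genes were changed there, with the same relative spread for all, so it does not check scaling or the error rate in these data.

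All 9 members are named, with up to 3 genes of each list by adjusted p among those averaging at least 5 CPM, the copies of members, and the 3 genes nearest in pattern to the largest riser and faller. A gene that this rule names is not reported here. Members and lists were chosen with earlier results of these data known. Alternatives were other scalings and filters, each library left out, both libraries numbered 1 left out, the replicate number as a block, limma voom (limma 3.58.1), DESeq2 1.42.0, no robust shrinkage, a fold of 1.5, thinned untreated libraries and, for ratios, a prior count of 0.5. Within groups no pair of libraries agreed within sampling noise (chi-square per degree of freedom 1.88 to 14.7). Start regions are from RefSeq, GRCh38.p14, and drawings used matplotlib 3.10.9. No molecular identifiers are named in the labels, so reads are not taken as independent molecules.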

Additional observations from a re-analysis of the deposited data

How the results depend on the processing

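All 9 members kept their direction under every alternative run, and 7 falls and 2 rises were called in each except the test against a fold of 1.5, where 4 members were called lower and 1 higher. PBX3 (log2 fold change -0.49), MEIS3 (-0.21), TGIF1 (-0.39) and TGIF2 (0.33) did not pass that test, which called 4363 genes higher and 3942 lower over all. With no filter on low counts the median log2 fold change of all genes was 0.20, over a larger set of genes, and all members stood lower, from -1.81 for MEIS2 to 1.95 for PBX4.

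Lists with few rising genes moved most. In the TGIF partner list 1 gene was called higher with library totals alone, without a filter and against a fold of 1.5. The count was 1 to 2 with a library left out (1 without MGO library 3 or 4). In HOX groups 9 to 13 none was called higher by edgeR with no filter (count 0, and 0 at an unadjusted p under 0.05) or against a fold of 1.5 (0 and 0). In HOX groups 1 to 8 the count was 0 against a fold of 1.5 (1 at an unadjusted p under 0.05) and 1 to 2 with a library left out (2 without MGO library 3, untreated library 2 or untreated library 4). The MEIS1 target list had 0 against a fold of 1.5 (0 unadjusted), and the PBX and MEIS partner list had 2 lower. Limma voom and DESeq2 were run only with the usual filter and against a fold of 1, where each called 1 gene higher in both HOX lists and the MEIS1 target list, as edgeR did; neither was run against a fold of 1.5 or without the filter. The cause of these moves was not tested, apart from the stricter fold. Without a filter all members shifted down by a like amount on the log2 scale, such as PBX2 from -0.71 to -0.90 and PBX4 from 2.13 to 1.95. Because their changes were small, MEIS3 (-0.21 to -0.39) and TGIF2 (0.33 to 0.15) thereby moved by over 1.5 times as a ratio. MEIS3 did so also with library totals alone (-0.31), where the median of all genes was -0.10.

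Only numbers 1 and 4 are shared between the groups, and their deviations correlated at 0.020 and -0.0078, so the numbers were not taken as a pairing. With the replicate block 6778 genes were higher and 6673 lower, against 7282 and 7182 without it, and all 9 members stayed called. In that fit a library whose number occurs in only 1 group adds nothing to the comparison, which rests on the libraries numbered 1 and 4. Without both libraries numbered 1 all 9 members also stayed called. MEIS1 and PBX4 rest on the fewest counts.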
